A study of Mus musculus with 4 samples.

Results

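The constitutive proteasome genes are described here in NF639, a mouse mammary tumour cell line that arose in an animal carrying the ErbB2 (Her-2/neu) oncogene. The 41 members were chosen by name: every gene of the platform annotation whose single symbol begins with Psma, Psmb, Psmc, Psmd, Psmf or Psmg and a digit, without the immune subunits Psmb8, Psmb9 and Psmb10 and without the Psme activators. They are 41 of the 12394 genes that had a probe set with 1 symbol, and each took its brightest probe set over the 4 arrays. The naming rule uses no measured difference, but it was set with earlier results of these data known. RNA came from an EGCG-resistant pool of NF639 cells (2 arrays, called Resistant here), EGCG being the green tea polyphenol epigallocatechin-3-gallate. It was set against RNA of the original NF639 population (2 arrays, called Original). All 4 samples share the line and its oncogene. The design text places the RNA in 2 independent experiments, and each array carries a replicate number. The resistant cells were a pool and not a single clone, and the labels do not say whether EGCG was in the medium at harvest. Each value is a MAS5 signal, a background-adjusted brightness with no unit, and the 2% trimmed mean of the signals was 497 to 498 on each array. Log2 fold changes are Resistant minus Original on the log2(signal + 3) scale, and only probe sets above the 40th percentile of mean log2 signal, the brightness filter, were tested.

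The proteasome is the protease that degrades most ubiquitin-tagged proteins of the cell. Its core particle is a barrel of stacked rings, with alpha subunits (Psma genes) forming the outer rings and gate and beta subunits (Psmb genes) the inner rings, where Psmb5, Psmb6 and Psmb7 encode the catalytic sites. The regulatory particle that caps the barrel holds a ring of ATPases (Psmc genes) that unfold substrates, and non-ATPase subunits (Psmd genes) that bind, deubiquitinate and position them. Subunits of one complex are needed together, and mammalian cells are known to raise their transcription together through the factor NFE2L1 when proteasome activity is short. EGCG has been reported to inhibit the chymotrypsin-like activity of the proteasome, which belongs to Psmb5. The comparison of Resistant with Original asks whether transcripts of the complex differ in abundance between these populations.

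Of the 13 epithelial markers examined, 12 had a mean log2 signal under the brightness filter, among them Krt8 (62.9 and 27.5 in Resistant, 47.4 and 53.1 in Original) and Epcam (6.7 and 1.4 in Resistant, 1.9 and 3.1 in Original), so the arrays do not show the keratin and adhesion genes of a mammary epithelium. Erbb2 had signals of 280.7 and 326.2 in Resistant and 319.7 and 299.4 in Original. Of 10 fibroblast markers 7 were above the filter, with log2 fold changes of -2.15 (Dcn) to 1.99 (Col3a1), and summed signals over the 10 of 6942 to 9925 in Resistant and 6502 to 8250 in Original. None of the 7 passed with limma, and with the replicate number as a block 4 were higher and 2 lower in Resistant (5.23% of all tested probe sets passed in that fit). Markers of leukocytes and endothelium had summed signals of 359.9 to 448.7 over 11 genes in Resistant and 363.3 to 506.3 in Original. Among them the leukocyte marker Ptprc was at 12 and 7.4 in Resistant and 8.6 and 14.8 in Original. Of the 11, 3 were above the filter. Cd68 had 124.6 and 71.8 in Resistant and 97.6 and 81.9 in Original. Csf1r had 102.6 and 46.5 in Resistant and 103.8 and 59.7 in Original. Lyz2 had 110 and 106.5 in Resistant and 186.6 and 79.6 in Original. The part of these cells in the results was not tested. The 14 probe sets of the spiked BioB, BioC and BioD controls were all brighter on the arrays numbered 2, by 1.39 to 2.46 times in Resistant and 1.39 to 2.36 times in Original. Values are therefore also given within each replicate number and with the number as a block in the fit, although no label names a batch.

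No constitutive proteasome gene passed the test between Resistant and Original, except that Psma5 and Psmb4 passed, both lower in Resistant, in the fit with the replicate number as a block. Of the 41 members, 40 lay above the brightness filter and were tested. The exception was Psma8, the alpha subunit of male germ cells, which had signals of 3.2 and 1.1 in Resistant and 21.3 and 12.5 in Original, all below the filter's signal of 49.1. With limma and Benjamini-Hochberg adjustment over all 13576 tested probe sets, 0 of the 40 members were called, against 0.169% of all tested probe sets (0.0589% higher and 0.11% lower in Resistant), and the smallest adjusted p of a member was 0.696. At an unadjusted p under 0.05 the count was also 0 of 40, against 7.35% of all tested probe sets. The log2 fold changes of the members ran from -0.39 for Psma5 to 0.21 for Psmg1, with a median of -0.066 and an SD of 0.138 between genes. Over all tested probe sets the median was -0.0035 and the SD 0.359. In RNA from a whole culture, fewer cells that express a gene and less RNA per cell cannot be told apart.

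The precision behind these values was that of bright probe sets. The tested members had mean signals of 514.5 to 9099, and their median lay at the 92nd percentile of brightness among the tested probe sets, which bears on their error and not on transcript amounts. The 95% intervals of the log2 fold changes reached 0.356 to 0.621 to either side, with a median of 0.395. These intervals came from the fit without the block and the brightest probe set of each gene. All 40 held 0, and all 40 lay within a 2-fold change in either direction. With the replicate number as a block, Psma5, Psmb4 and Psmd4 had unadjusted limma p of 0.0013, 0.0024 and 0.033. 29 of the 40 lay within 1.5-fold. The widest reach downward was -0.78, for Psma5, and the widest reach upward was 0.60, for Psmg4. The median absolute log2 fold change was 0.089 over the members and 0.178 over all tested probe sets. Among the 6153 tested probe sets at least as bright as the dimmest tested member it was 0.143. That set shares the members' lower limit but was not matched to them in brightness.

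**Figure D1:**
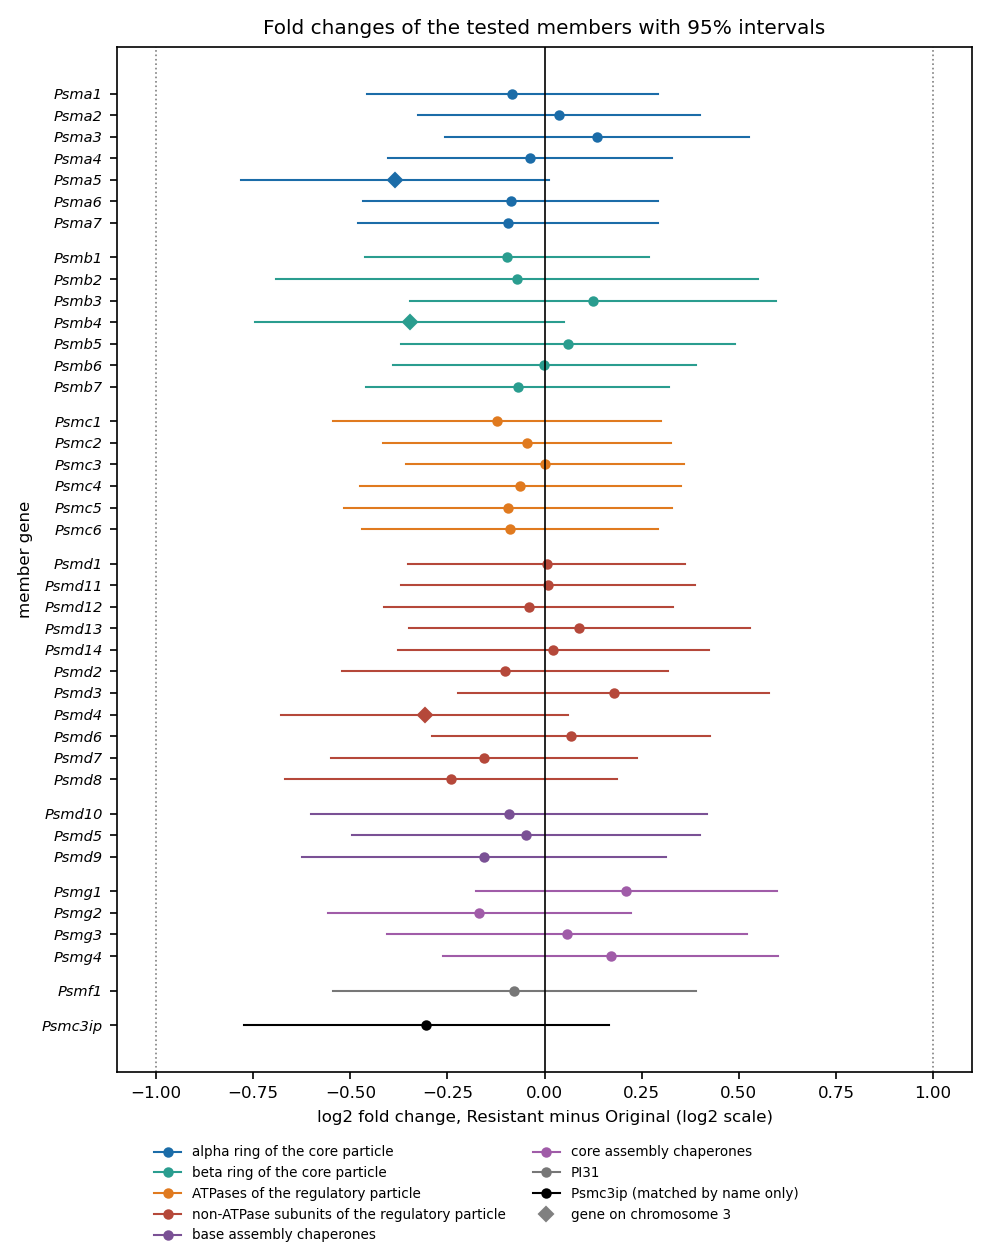
Log2 fold changes of the 40 tested members (x axis, Resistant minus Original on the log2 scale), grouped by role down the page; points are limma estimates from 2 arrays per group, lines their 95% intervals, diamonds genes on chromosome 3 and dotted lines a 2-fold change. Every interval, from the fit without the replicate block, crosses 0 and stays inside the dotted lines. The diamonds, at -0.31 to -0.39, lie farthest to the left.

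In the alpha ring, which gates the entry to the core, 7 of 8 genes were tested, with 5 log2 fold changes below 0 and a median of -0.083. Psma5 had signals of 5345.4 and 4629.5 in Resistant, against 5845.3 and 7218.8 in Original. Both Resistant arrays were dimmer than both Original arrays, with a log2 fold change of -0.39 ± 0.179 (SE; 95% interval -0.78 to 0.011) that did not pass (limma adjusted p = 0.696, and 0.0310 with the replicate number as a block). The difference was -0.13 between the arrays numbered 1 and -0.64 between those numbered 2. Psma3 had 5672.4 and 6403.3 in Resistant and 4953.7 and 6070 in Original, which overlap, at a log2 fold change of 0.14 ± 0.176 (SE). The other 5 tested genes, Psma1, Psma2, Psma4, Psma6 and Psma7, lay between -0.095 for Psma7 and 0.036 for Psma2, and the signals of each overlapped between the groups. Psma4 had 4621.4 and 4621.2 in Resistant, against 4401.6 and 5099.8 in Original.

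The beta ring carries the catalytic sites. Psmb5, whose product holds the chymotrypsin-like site, had signals of 3129.6 and 3676.8 in Resistant and 2775.1 and 3810.5 in Original. The Resistant values lay inside the range of the Original ones, and the log2 fold change was 0.060 ± 0.194 (SE; 95% interval -0.37 to 0.49). Psmb6, which encodes the caspase-like site, had 3317.6 and 3362.1 in Resistant and 2952.1 and 3776.7 in Original, a log2 fold change of -0.00075 ± 0.176 (SE; 95% interval -0.39 to 0.39). Psmb7, which encodes the trypsin-like site, had 8577.1 and 9151.6 in Resistant and 8428.3 and 10240.8 in Original, a log2 fold change of -0.070 ± 0.176 (SE; 95% interval -0.46 to 0.32). For each of the catalytic genes the signals of the groups overlapped, and the intervals leave out a change of 1.5-fold in either direction.

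Among the structural beta genes, Psmb4 had signals of 5822.6 and 6647.4 in Resistant, against 7129.6 and 8779 in Original. Its arrays did not overlap, and its log2 fold change of -0.35 ± 0.179 (SE; 95% interval -0.74 to 0.050) did not pass (limma adjusted p = 0.742, and 0.0470 with the replicate number as a block). The difference was alike within the replicate numbers, at -0.29 and -0.40. Psmb3 had 3315.6 and 4684.4 in Resistant and 3137.1 and 4162.2 in Original, with a log2 fold change of 0.12 ± 0.212 (SE). Psmb2 varied most within a group, with 1390.3 and 2676.4 in Resistant and 1739.4 and 2358.1 in Original, and had the widest interval of the tested members (-0.69 to 0.55). Psmb1 had a log2 fold change of -0.097 and overlapping signals. Over the 7 beta genes 5 log2 fold changes were below 0 and the median was -0.070.

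The ATPase ring varied least from gene to gene. The 6 Psmc genes had log2 fold changes of -0.12 (Psmc1) to 0.0018 (Psmc3), with a median of -0.076 and an SD of 0.044 between genes, and the signals of all 6 overlapped between the groups. Psmc1 had 1876.9 and 1852.7 in Resistant and 1725.5 and 2387 in Original. Psmc3 had 3692.6 and 3567.5 in Resistant and 3439.6 and 3814.8 in Original. In all 6 genes the array Original 2 was the brightest, and in all but Psmc6 Original 1 was the dimmest. The median difference over the ATPases was accordingly 0.12 between the arrays numbered 1 and -0.32 between those numbered 2.

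The 11 non-ATPase subunits of the regulatory particle had a median log2 fold change of 0.0049, with 5 below 0 and 6 above. Psmd4, which encodes a receptor for ubiquitin chains, had signals of 2127.3 and 2368.6 in Resistant, against 2607 and 2963.8 in Original. The arrays did not overlap, and the log2 fold change of -0.31 ± 0.167 (SE; 95% interval -0.68 to 0.061) did not pass (limma adjusted p = 0.759). Psmd14, the deubiquitinase that removes the chain as the substrate is drawn in, had 5356.4 and 5992.9 in Resistant and 4940.9 and 6287.9 in Original, a log2 fold change of 0.023 ± 0.180 (SE; 95% interval -0.38 to 0.42). Psmd3, a scaffold subunit of the lid, had 1595.3 and 1992.7 in Resistant and 1483.1 and 1672.8 in Original, with overlapping arrays and a log2 fold change of 0.18 ± 0.181 (SE).

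Psmd8, a small lid subunit, had 1570.4 and 2033.3 in Resistant and 1895.3 and 2349.2 in Original, a log2 fold change of -0.24 ± 0.193 (SE). Psmd7, the partner of Psmd14 in the lid, had 2149.9 and 2469.3 in Resistant and 2314 and 2843.4 in Original, at -0.16 ± 0.177 (SE). Both sets of arrays overlapped. Psmd13 had 1066.3 and 1233.4 in Resistant and 933.2 and 1243.4 in Original, at 0.089 ± 0.198 (SE), and Psmd6 had 3554.4 and 3923.5 in Resistant and 3463.4 and 3661.3 in Original, at 0.067 ± 0.162 (SE). The lid subunits Psmd11 and Psmd12 and the large base subunits Psmd1 and Psmd2, which anchor the particle and bind substrate shuttles, lay between -0.10 (Psmd2) and 0.0077 (Psmd11) with overlapping signals. The median log2 fold change was -0.070 over the 14 tested genes of the core particle and -0.045 over the 17 of the regulatory particle.

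The chaperones that assemble the complex are not part of the finished particle. Psmg1, which with Psmg2 guides alpha ring assembly, had signals of 1050.5 and 989.9 in Resistant, against 901.5 and 859.3 in Original. It was the only tested member with both Resistant arrays above both Original arrays, and its log2 fold change of 0.21 ± 0.174 (SE; 95% interval -0.18 to 0.60) did not pass (limma adjusted p = 0.883). Its partner Psmg2 had 1718.6 and 1678.4 in Resistant and 1708.4 and 2130.4 in Original, at -0.17 ± 0.176 (SE). The other assembly pair is Psmg3 and Psmg4. Psmg4 had 724.3 and 839.3 in Resistant and 637.4 and 751.2 in Original, at 0.17 ± 0.194 (SE), and Psmg3 lay at 0.057 ± 0.209 (SE). The chaperones of the ATPase ring, Psmd5, Psmd9 and Psmd10, had log2 fold changes of -0.047, -0.16 and -0.092, with overlapping arrays. Psmd9 had 446.9 and 526.2 in Resistant and 492.9 and 592.1 in Original. Psmf1, which encodes the proteasome-binding protein PI31, had 533.6 and 641.3 in Resistant and 551 and 690.9 in Original, at -0.078 ± 0.210 (SE).

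Psmc3ip met the naming rule but encodes a partner of meiotic recombinases and not a proteasome subunit. It had signals of 566.1 and 465.7 in Resistant, against 705.2 and 570.4 in Original, with no overlap, and a log2 fold change of -0.30 ± 0.211 (SE) that did not pass (limma adjusted p = 0.843). Without it the median of the remaining 39 tested members was -0.063 and the count of calls stayed at 0.

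The members differed more between the Original arrays than between the groups. As the deviation of each member from its own mean over the 4 arrays, the median over the 40 tested members was -0.069 and 0.014 on the Resistant arrays 1 and 2, and -0.100 and 0.172 on the Original arrays 1 and 2. The array Original 2 was the high one: 37 of 40 members were brighter there than on Original 1, with a median difference of 0.291, while 27 of 40 were brighter on Resistant 2 than on Resistant 1, with a median difference of 0.102. Over all tested probe sets the same deviations were 0.028 and -0.026 in Resistant, and 0.034 and -0.027 in Original. Over the 6153 at least as bright as the dimmest tested member, they were -0.0034 and 0.013 in Resistant, and -0.017 and 0.011 in Original. With quantile normalisation Original 2 was again the highest, the members' medians being -0.042 and -0.038 in Resistant, against -0.063 and 0.112 in Original.

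The direction of the members' median followed that array. It was 0.053 between the arrays numbered 1 and -0.15 between those numbered 2. Without Original 2 the median was 0.081, without Original 1 it was -0.19, and without Resistant 1 it was -0.019. Of the 40 members 26 had a log2 fold change below 0, against 50.5% of all tested probe sets. Within both replicate numbers 13 of the 40 were below 0, a share close to the 29.9% of all. Within both numbers 6 were above 0, against 28.9%, and the sign differed between the numbers in the other 21. The sign of the members' median thus differed between the replicate numbers.

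**Figure D2:**
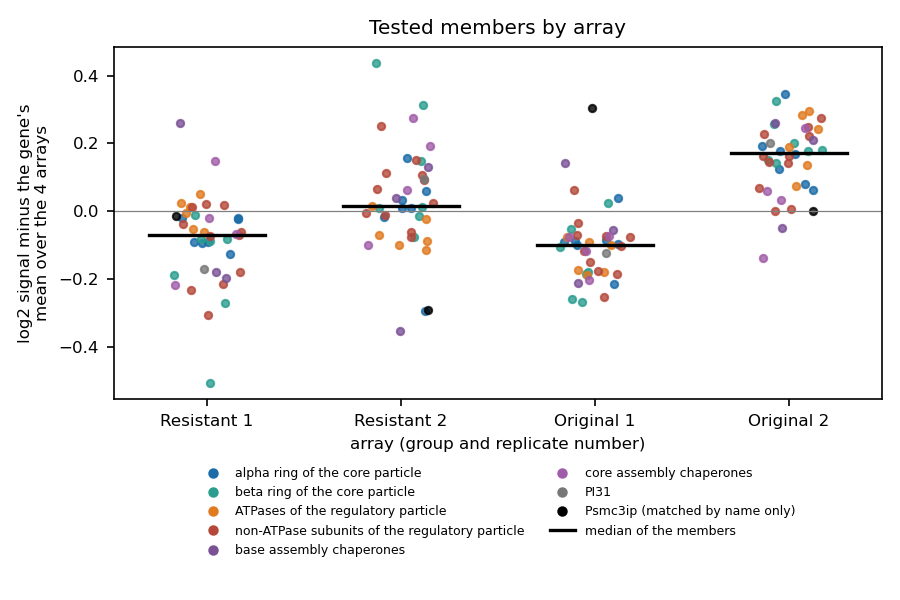
Deviation of each tested member from its own mean over the 4 arrays (y axis, log2 signal), by array (x axis), coloured by role; the black line is the median of the 40 members. The median stands at 0.172 on Original 2 and at -0.069, 0.014 and -0.100 on Resistant 1, Resistant 2 and Original 1.

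Of the tested members, 4 had both Resistant arrays below both Original arrays (18.3% of all tested probe sets did), and 1, Psmg1, had both above (17.7% of all). The 4 were Psma5, Psmb4, Psmd4 and Psmc3ip. Psma5, Psmb4 and Psmd4 also had the lowest log2 fold changes of all tested members, and they are the members that lie on chromosome 3. With the replicate number as a block, 2 of the 40 members passed, against 5.23% of all tested probe sets (2.23% higher and 3% lower). Both members were lower in Resistant: Psma5 (limma with the block, adjusted p = 0.0310) and Psmb4 (adjusted p = 0.0470). Psmd4 did not pass in that fit (adjusted p = 0.251). Their further probe sets had the same sign, but none passed in the blocked fit. The second tested probe set of Psma5 had a log2 fold change of -0.33 (limma with the block, adjusted p = 0.145). That of Psmb4 had -0.22 (adjusted p = 0.456). The other tested probe sets of Psmd4 had -0.43 and -0.49 (adjusted p = 0.0817 and 0.562). The 95% interval of the first of these, without the block, was -0.80 to -0.053 (limma adjusted p = 0.589). The last came from a dim probe set whose arrays overlapped.

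Genes of chromosome 3 outside the proteasome also had log2 fold changes mostly below 0, so the values of Psma5, Psmb4 and Psmd4 are set beside those of their chromosome. Over the 382 tested genes of chromosome 3 the median log2 fold change was -0.30 and 325 were below 0, the lowest median of the 20 chromosomes compared. The members there had a median of -0.35, while the other 36 tested proteasome genes, without Psmc3ip, had a median of -0.046 and a range of -0.24 to 0.21. The surroundings of the members were not alike. Among the 10 nearest tested genes on either side of Psma5, 18 of 20 were below 0, with a median of -0.39. Psmb4 and Psmd4 lie close together with the tested gene Rfx5 (-0.62) between them. Of the 20 tested neighbours of Psmb4, 12 were below 0 with a median of -0.084, and of those of Psmd4 13 were below 0 with a median of -0.085. Most of these neighbours are shared between Psmb4 and Psmd4, so the counts and medians are not separate readings. The neighbours include Psmd4 for Psmb4 and the reverse, and hold the genes S100a4 (-0.10), S100a6 (0.054) and S100a10 (-0.27). This grouping by chromosome was made after the values were seen, and its part in the members' differences was not tested.

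**Figure D3:**
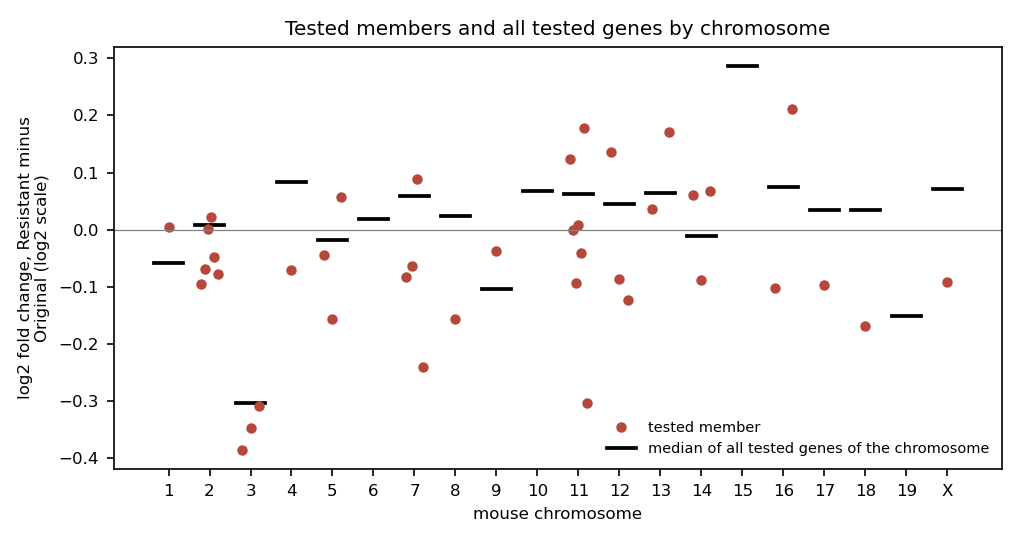
Log2 fold changes (y axis, Resistant minus Original) of the tested members (points) and the median of all tested genes of each chromosome (black bars), by mouse chromosome (x axis). On chromosome 3 the bar is at -0.30 and the points are at -0.31 to -0.39, while the highest bar, on chromosome 15 at 0.29, has no member beside it.

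The promoter windows of 5 members are shown as examples, chosen after the values were seen. Psma5, Psmb4 and Psmd4 had arrays that stood apart, and the catalytic genes Psmb5 and Psmb6 had arrays that overlapped. The windows of Psmg1 and Psmc3ip, whose arrays also stood apart, are not shown. Each runs from 250 bases before to 50 bases after the gene's start, 5′ to 3′ on the strand of the gene, from RefSeq on GRCm38.p6. The windows are chr3:108256676-108256975 on the plus strand, chr3:94886909-94887208 and chr3:95042565-95042864 on the minus strand, chr14:54617946-54618245 on the minus strand and chr11:70525107-70525406 on the plus strand. Capitals mark matches, on either strand, to the antioxidant response element core TGACNNNGC, which NFE2L1 and NFE2L2 bind with small MAF partners, to the CCAAT box of NF-Y, to the ETS site CCGGAAG or to the GC-rich nuclear respiratory factor site. None of the 4 motifs contains another.
Psma5: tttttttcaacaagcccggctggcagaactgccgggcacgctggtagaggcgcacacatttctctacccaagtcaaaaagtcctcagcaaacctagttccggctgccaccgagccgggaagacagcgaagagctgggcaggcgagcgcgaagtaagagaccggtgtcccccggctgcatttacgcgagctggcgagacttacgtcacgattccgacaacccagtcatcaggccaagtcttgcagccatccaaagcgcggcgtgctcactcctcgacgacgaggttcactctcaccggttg
Psmb4: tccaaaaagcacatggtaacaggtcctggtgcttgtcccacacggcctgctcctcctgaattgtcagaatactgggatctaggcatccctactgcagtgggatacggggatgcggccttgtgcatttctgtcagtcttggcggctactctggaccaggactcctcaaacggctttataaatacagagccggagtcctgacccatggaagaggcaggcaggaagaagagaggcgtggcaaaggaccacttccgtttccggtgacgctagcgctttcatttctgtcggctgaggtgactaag
Psmd4: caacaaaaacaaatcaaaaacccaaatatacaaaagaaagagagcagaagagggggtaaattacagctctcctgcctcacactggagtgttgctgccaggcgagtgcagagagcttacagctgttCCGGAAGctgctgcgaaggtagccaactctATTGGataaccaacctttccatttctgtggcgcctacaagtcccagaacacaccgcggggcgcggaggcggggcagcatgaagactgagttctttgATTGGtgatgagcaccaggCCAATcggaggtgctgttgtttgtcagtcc
Psmb5: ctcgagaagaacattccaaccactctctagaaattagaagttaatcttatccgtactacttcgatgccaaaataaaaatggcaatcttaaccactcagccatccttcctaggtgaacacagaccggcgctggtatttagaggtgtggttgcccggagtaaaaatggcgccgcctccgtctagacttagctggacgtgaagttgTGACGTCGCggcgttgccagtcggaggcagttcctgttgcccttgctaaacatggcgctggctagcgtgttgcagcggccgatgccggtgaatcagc
Psmb6: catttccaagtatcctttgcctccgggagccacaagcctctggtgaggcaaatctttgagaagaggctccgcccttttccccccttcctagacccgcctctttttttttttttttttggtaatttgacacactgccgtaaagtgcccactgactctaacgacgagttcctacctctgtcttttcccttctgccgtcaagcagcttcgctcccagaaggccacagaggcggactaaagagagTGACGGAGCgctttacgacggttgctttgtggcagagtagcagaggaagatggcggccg

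The windows of Psmb5 and Psmb6 each hold the antioxidant response element core, 47 and 9 bases before the start. Psmd4 holds an ETS site 125 bases before the start and the CCAAT box at 3 places. The windows of Psma5 and Psmb4 hold none of the 4 motifs. Both hold the looser core TGANNNNGC, which every TGACNNNGC match also fits, 8 and 17 bases after the start. Both also hold the short ETS core GGAAG, and Psmb4 holds the TATA box TATAAA. The looser core was present in 20 of the 35 member windows (57.1%), against 41.3% of all windows. The short ETS core was present in 88.6% of member windows, against 71.4% of all, and the TATA box in 8.57%, against 13.6%. 33 of the 41 members had a window, 35 windows in all. The stricter core, TGACNNNGC, was present in 5 of them (14.3%), against 12.4% of all 32851 windows of the table. The CCAAT box was present in 12 (34.3%, against 37.4%), the ETS site in 14 windows of 13 genes (40%, against 8.86%) and the nuclear respiratory factor site in 7 (20%, against 4.6%). These matches describe letters in a window, and no binding was measured. Whether the motifs go with the members' log2 fold changes was not tested.

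The immune subunits that can replace the catalytic ones had lower signals in Resistant, and of them Psmb8 passed, in the blocked fit only. Psmb8, the immune counterpart of Psmb5, had signals of 698.1 and 714.6 in Resistant, against 1425.7 and 1200 in Original, a log2 fold change of -0.89 ± 0.181 (SE; limma adjusted p = 0.128, and 4.41e-05 with the replicate number as a block). Psmb9, the counterpart of Psmb6, had 72.1 and 66.3 in Resistant and 163.4 and 104.7 in Original, at -0.89 ± 0.359 (SE; limma adjusted p = 0.602, and 0.0935 with the block). Psmb10, the counterpart of Psmb7, had 919.3 and 992.4 in Resistant and 1331.2 and 1325 in Original, at -0.48 ± 0.170 (SE; limma adjusted p = 0.548, and 0.0819 with the block). In none of these did the arrays overlap, in contrast with their constitutive counterparts. The log2 fold change of the immune gene minus that of its counterpart was -0.95 for Psmb8 and Psmb5 (-1.20 and -0.69 within the replicate numbers), -0.89 for Psmb9 and Psmb6 (-1.32 and -0.47) and -0.41 for Psmb10 and Psmb7 (-0.56 and -0.25). The exact two-sided permutation test of each difference gave p = 0.333, the smallest that 2 arrays against 2 allow.

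**Figure D4:**
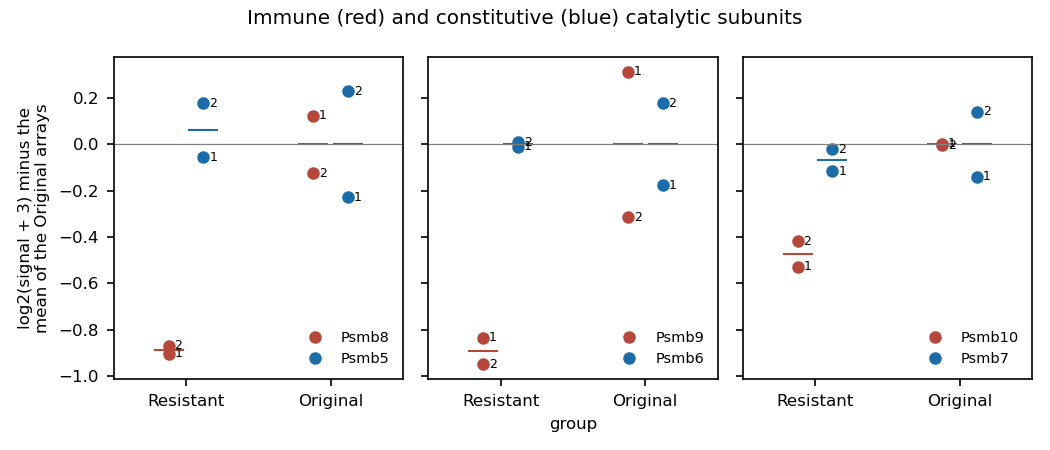
Signals of the immune (red) and constitutive (blue) catalytic genes on each array, as log2(signal + 3) minus the mean of the Original arrays (y axis), for Resistant and Original (x axis); digits are replicate numbers and short bars group means. Psmb8 and Psmb9 lie near -0.89 in Resistant and Psmb10 at -0.48, while Psmb5 lies at 0.060, Psmb6 at -0.00075 and Psmb7 at -0.070.

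Without the block, genes that work with the proteasome outside the naming rule gave 0 calls as well. Of the 11 measured genes on that list 0 passed, with a median log2 fold change of 0.053. The list also held Psmc3ip, which met the naming rule, encodes no proteasome subunit and is already counted among the members. Pomp, the maturation factor of the core, had signals of 4035 and 3806.1 in Resistant and 3916.7 and 4342.1 in Original, at -0.075 ± 0.162 (SE). Uchl5, a deubiquitinase of the regulatory particle, had 2145.1 and 1768.8 in Resistant and 2341.8 and 2679.4 in Original. Its arrays did not overlap, at -0.36 ± 0.175 (SE; limma adjusted p = 0.709). Usp14, the other such deubiquitinase, lay at 0.093 ± 0.175 (SE). Of the 6 measured immune and activator genes 0 passed without the block, and Psmb8 alone passed with it. The activator genes Psme1, Psme3 and Psme4 lay at -0.28, -0.10 and 0.25. The median over those 6 was -0.38.

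The genes of the transcription factors that drive proteasome expression did not pass. Nfe2l1 had 946.1 and 872.7 in Resistant and 940.2 and 777 in Original, a log2 fold change of 0.087 ± 0.187 (SE), and Nfe2l2 had 2395.4 and 2057.1 in Resistant and 1817.7 and 2016.4 in Original, at 0.21 ± 0.170 (SE; limma adjusted p = 0.882), with both Resistant arrays above both Original arrays. Of the 8 tested genes of the NFE2L1 axis 0 passed, with a median of 0.033; the lowest was Keap1, the adaptor that targets NFE2L2 for degradation, at -0.39 ± 0.212 (SE). Of the 8 tested shuttle and segregase genes, which deliver ubiquitinated substrates, 0 passed, with 7 above 0 and a median of 0.11. Vcp, the segregase itself, had 7457.5 and 8037.9 in Resistant and 6833.6 and 7812.5 in Original, at 0.082 ± 0.169 (SE). The ubiquitin genes, the receptor gene Adrm1 and the thymic subunit gene Psmb11 were not analysed here.

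Several members had more than 1 probe set, which gives further readings of the same gene, though not always of the same part of its transcripts. The 41 members had 74 probe sets, of which 65 were tested, and 17 members had at least 2 tested probe sets. In 11 of these 17 all tested probe sets had the same sign. The widest spread was in Psmc6, whose probe sets ran from -0.089, for the brightest, to 0.37, for the dimmest (mean signal 147.9). Psmd11, with 5 tested probe sets, ran from -0.29, for the dimmest (mean signal 67.3), to 0.13. Psmc4, with 2, ran from -0.063 to -0.056. With the mean over all tested probe sets in place of the brightest, the median of the members was -0.053 and the count of calls 0.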

How the data were processed

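Values were deposited MAS5 signal intensities on a linear scale, 1 per probe set and array, per the submitters' processing notes; the software version and genome build are not given in the sources used here. The 2% trimmed mean was 497 to 498 on each array, so a global difference in RNA content would not be visible in these values; having few arrays sets the precision. Arrays were rescaled to a common trimmed mean, and log2(signal + 3) was taken (3 is the rounded 10th percentile). Probe sets under the 40th percentile of mean log2 signal (49.1) and 64 controls were left out. Resistant minus Original was fitted over the remaining 13576 probe sets with limma 3.58.1 in R 4.3.3 (eBayes with a mean-variance trend), with two-sided p-values adjusted by Benjamini-Hochberg (threshold 0.05). P-values measure the spread between these arrays only. The procedure was tested on simulated data.

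Genes came from the platform annotation and chromosomes from the GRCm38.p6 gene table, in which all 41 members matched. Members and lists were chosen with earlier results of these data known. Members named with all their signals were the 8 with the highest and the 8 with the lowest log2 fold change, the catalytic subunits, Psmd4, Psmd14 and Psmf1; further genes were named as examples after their values were seen. 9 promoter motifs were searched and 5 are described. No window was available for Psma8, Psmb1, Psmb2, Psmb7, Psmc3, Psmd3, Psmd7 and Psmg2. Alternatives changed the pseudocount, filter, scaling, variance model, probe set, block and arrays used.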

Additional observations from a re-analysis of the deposited data

How the results depend on the processing

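No member passed with a pseudocount of 1 or 17, other filters or scalings, the fit without a variance trend, or other choices of probe set. At an unadjusted p under 0.05 these fits gave 0 to 2 members where counted over all probe sets. The 2 came with quantile normalisation, where 1138 of all 13576 probe sets were under 0.05. Over all probe sets the counts ran from 722 of 9051 (filter at the 60th percentile) to 1494 of 22626 (no filter). With the replicate block 2 members passed, Psma5 and Psmb4. In that fit 3 of the 40 were at an unadjusted p under 0.05, against 2125 of all 13576 probe sets. The number called over all probe sets with the block was 710, against 23 without it. Paired by replicate number, the deviations of the arrays from their group means correlated at 0.352 across probe sets; no label ties a number to a shared culture or day, and the blocked fit has 1 residual degree of freedom. Over all probe sets 5 were called without the filter, 10 with a filter at the 60th percentile, 8 with quantile normalisation and 0 without the trend (922 at an unadjusted p under 0.05, of which 0 were members). Leaving out 1 array gave 68 (without Resistant 1) to 111 (without Original 1) calls, with 76 without Original 2 and 91 without Resistant 2; each such fit assumes that a lone array varies like the other group. The members' median log2 fold change ran from -0.19 to 0.081 when 1 array was left out, the highest without Original 2, and from -0.070 to -0.051 under the other scalings, filters, pseudocounts and probe set choices. Without the members on chromosome 3, an alternative added after the data were seen, it was -0.047. Of 314 log2 fold changes of the 20 named members under alternatives, 23 changed sign. These came from 11 of the 20 members, so the direction of those 11 depended on the alternative. Changes smaller than the intervals given cannot be seen with 2 arrays per group.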
